A study of Mus musculus with 7 samples.

Results

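The cell cycle and self-renewal genes described here were 44 genes for cyclins, cyclin-dependent kinases (CDKs) and their inhibitors, DNA replication factors, mitotic factors and Myc. They were taken by symbol from the 26143 named genes of a count table, with 14 assigned to G1, 14 to S and 16 to G2/M phase, and all 44 passed the filter on low counts. Their messenger RNA was measured by RNA sequencing in sorted mouse alveolar macrophages, the resident macrophages of the airspaces. The tested mice were Cish KO on the C57BL/6 strain (3 libraries) and the controls were WT C57BL/6 (4 libraries), all aged 4 months. Cish encodes a suppressor of cytokine signalling of the SOCS family, and the study asked how its loss changes gene expression in these cells. The construction of the KO allele is not given in the sources used here, and no label states how many mice stand behind a library. P-values therefore describe the spread between libraries, which may be partly technical.

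Cells enter the cycle when D cyclins with CDK4 or CDK6, and then E cyclins with CDK2, phosphorylate the pocket proteins and release E2F factors, which switch on the genes of DNA replication. Genes of G2 and mitosis peak later, under the MuvB complex and FOXM1, which act through a promoter element called the cell cycle homology region (CHR). Mature alveolar macrophages renew themselves locally by slow division, for which the growth factor GM-CSF is a known stimulus in mice, and Myc and Klf4 are known to support self-renewal of mouse macrophages.

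The promoters of 3 members are shown because they differ in their matches to letters known from S and G2/M promoters, from several to none. Each window runs from 250 bases before to 50 bases after the annotated start (RefSeq, GRCm38.p6), and is printed on the strand of the gene. Capitals mark TTGGCGC or TTCCCGC (E2F), TTTGAA or TTCGAA (CHR) and CCAAT (the NF-Y box), each searched on both strands. Mcm3, a subunit of the replicative helicase, lies at chr1:20820263-20820562 on the minus strand. Top2a, the topoisomerase that untangles sister chromatids, lies at chr11:99024140-99024439 on the minus strand. Birc5, which encodes survivin of the chromosomal passenger complex, lies at chr11:117848987-117849286 on the plus strand.
Mcm3: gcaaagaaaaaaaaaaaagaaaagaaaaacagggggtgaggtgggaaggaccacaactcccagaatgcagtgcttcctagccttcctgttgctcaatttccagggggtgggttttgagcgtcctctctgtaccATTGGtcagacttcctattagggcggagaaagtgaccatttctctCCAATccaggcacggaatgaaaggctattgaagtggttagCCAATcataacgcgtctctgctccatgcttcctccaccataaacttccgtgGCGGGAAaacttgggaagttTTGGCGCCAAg
Top2a: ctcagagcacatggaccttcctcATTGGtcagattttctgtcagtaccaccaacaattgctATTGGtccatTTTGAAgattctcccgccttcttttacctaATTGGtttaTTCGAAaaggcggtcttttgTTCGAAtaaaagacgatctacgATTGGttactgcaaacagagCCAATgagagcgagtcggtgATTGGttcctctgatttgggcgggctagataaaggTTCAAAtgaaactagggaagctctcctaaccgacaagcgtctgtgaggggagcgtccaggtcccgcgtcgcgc
Birc5: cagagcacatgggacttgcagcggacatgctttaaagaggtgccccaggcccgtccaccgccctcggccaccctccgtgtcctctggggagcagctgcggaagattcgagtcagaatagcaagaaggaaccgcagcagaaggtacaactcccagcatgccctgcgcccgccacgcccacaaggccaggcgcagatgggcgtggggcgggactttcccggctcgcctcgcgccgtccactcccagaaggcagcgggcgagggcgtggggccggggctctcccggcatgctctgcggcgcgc
The Mcm3 window held 3 E2F matches, of which the last 2 overlap on opposite strands, with 3 CCAAT and no CHR match. The Top2a window held 4 CHR and 6 CCAAT matches and no E2F match, and the Birc5 window held none of these letters. A match is a description of the letters and not a site of binding.

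Windows were found for 35 of the 44 members. Among 13 windows of G2/M members, 11 (84.6%) held a CHR match, against 19.2% of all 32851 RefSeq promoter windows of the same length, 12 held CCAAT, against 37.4%, and 3 (23.1%) held an E2F match, against 6.81%. Among 14 windows of 12 S members, 8 (57.1%) held an E2F match, 11 (78.6%) held CCAAT and 2 held a CHR match. Among 14 windows of 10 G1 members, 3 held an E2F match and 1 a CHR match.

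Total counts per library lay between 26780291 and 34483612. Cish itself (chr9:107296026-107302784, GRCm38) had 390, 369 and 296 counts in the KO libraries, against 1656, 948, 1198 and 2170 counts in the WT libraries. The groups did not overlap, and the log2 fold change was -1.84 (SE 0.26). Its adjusted p was 0.0519 in edgeR's quasi-likelihood test, above the threshold of 0.05, and 2.81e-11 in DESeq2. Of the 14 alveolar macrophage markers none was at 0 in any library, and their summed level was 51887 to 85130 CPM (counts scaled to a common library total) in KO and 27563 to 62980 CPM in WT, most of it Chil3. The markers were split in direction, and 7 of the 14 had a lower mean in KO. Siglecf, Ear1 and Cidec were lower in KO without overlap between groups, and Mrc1 was higher without overlap. On the first principal component WT 4 lay apart from the other WT libraries, between them and the KO libraries.

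No member passed edgeR's threshold of an adjusted p under 0.05 over all 12759 genes tested. The smallest adjusted p was 0.0950, for Birc5. Of all genes tested, 11 passed, which is 0.0862%. DESeq2 called 2 of the 44 members, Mcm3 higher and Birc5 lower in KO, against 5.71% of its genes. At an unadjusted p under 0.05 by edgeR there were 9 members (20.5%), 7 higher and 2 lower in KO, against 18.0% of all genes. In 7 members (15.9%) the KO and WT libraries did not overlap, 5 higher and 2 lower, against 16.0% of all genes, 7.23% higher and 8.72% lower. In both counts the total was close to that of the whole table. By direction, 15.9% of members were higher and 4.55% lower at an unadjusted p under 0.05, against 9.15% and 8.85% of all genes, and 11.4% were higher and 4.55% lower without overlap. The differences were also small: 1 of the 44 members (2.27%) had a log2 fold change of at least 0.5 in either direction, against 14.4% of all genes. The cells were sequenced in bulk, so fewer cells in a phase and less RNA per cell cannot be told apart.

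The medians of the phases differed in direction. In KO, 11 of the 14 S members had a positive log2 fold change with a median of 0.13, 10 of the 14 G1 members were positive with a median of 0.16, and 12 of the 16 G2/M members were negative with a median of -0.15. Of all genes tested, 49.5% were negative and the median was 0.00. Within groups, the mean log2 CPM of a phase had an SD between libraries of 0.17 for S, 0.16 for G2/M and 0.06 for G1 members. For S and G2/M that spread was larger than the median in size. Without WT 1 the G2/M members split 9 negative to 7 positive (median -0.04), and without KO 1 the S members split 8 positive to 6 negative. By edgeR's unadjusted p under 0.05, 4 S members and 3 G1 members were higher in KO and none lower, against 9.15% of all genes higher. In the same way 2 G2/M members were lower and none higher, against 8.85% of all genes lower.

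**Figure D1:**
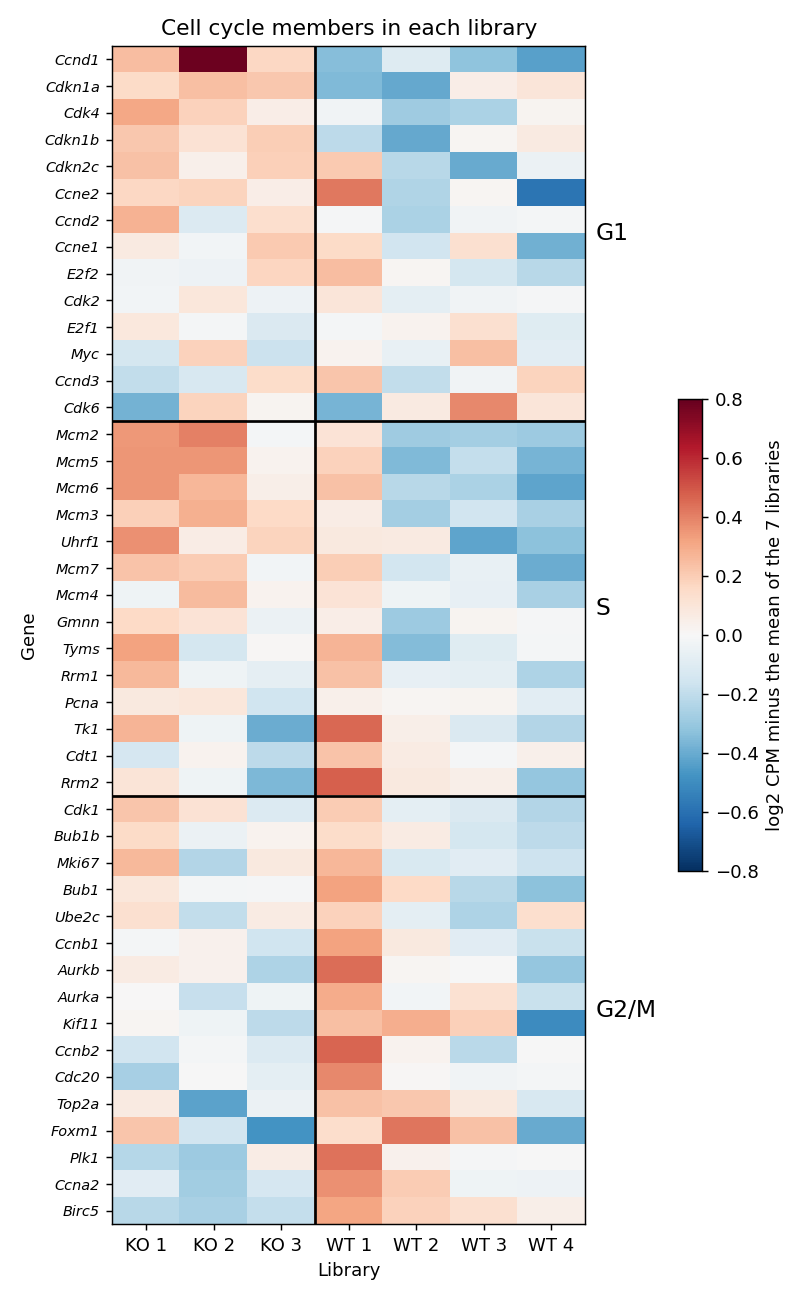
Each cell shows log2 CPM minus the mean of the 7 libraries for 1 member (rows, by phase and then by log2 fold change) in 1 library (columns, KO left and WT right), red above and blue below the mean. WT 1 is the highest library for 12 of the 16 G2/M members, and KO 1 or KO 2 is the highest for 11 of the 14 S members.

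**Figure D2:**
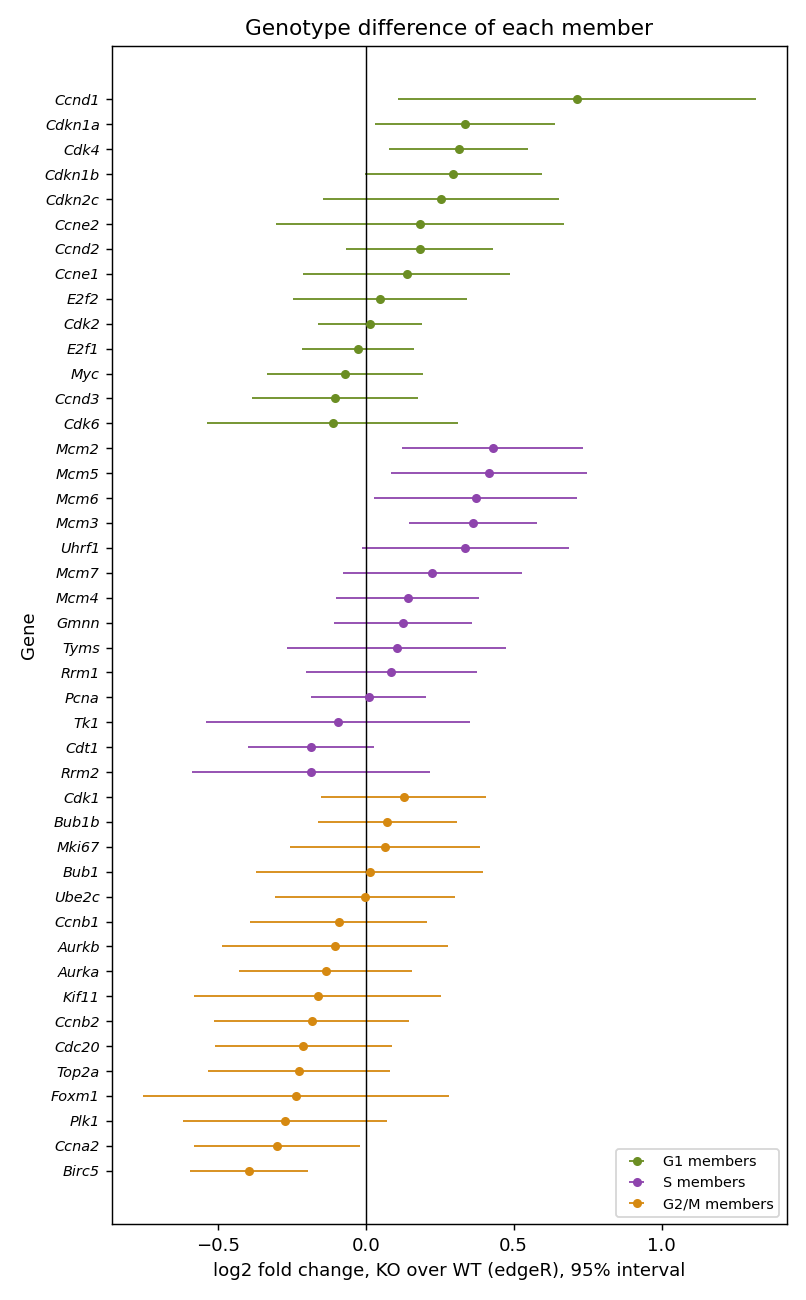
Points are the edgeR log2 fold changes of KO over WT for the 44 members, grouped by phase, and bars are 95% confidence intervals. Intervals of 9 members leave out 0, and Ccnd1 stands farthest to the right at 0.71.

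Among the G1 members, the D cyclins carry growth factor signals to CDK4 and CDK6. Ccnd2 was by far the most abundant D cyclin, with 522, 398 and 472 CPM in KO libraries, against 428, 361, 421 and 425 CPM in WT libraries. The groups overlapped (log2 fold change 0.18, SE 0.11, edgeR adjusted p = 0.415). Ccnd3 had 83.7, 87.7 and 106 CPM in KO libraries, against 112, 83.6, 93.9 and 108 CPM in WT libraries, and overlapped too (-0.10, SE 0.12, edgeR adjusted p = 0.702). Of its exon bases, 14.8% are shared with Bysl. Ccnd1 (chr7:144929931-144939925) was scarce, with 1.55, 2.25 and 1.47 CPM in KO libraries, against 1.04, 1.22, 1.05 and 0.970 CPM in WT libraries. Every KO library lay above every WT library, at 40 to 58 counts in KO and 31 to 39 in WT, and the log2 fold change was 0.71 (SE 0.27, edgeR adjusted p = 0.209). Of its exon bases, 21.9% are shared with the neighbouring gene LTO1 and the library kit does not keep the strand, so reads there cannot be assigned to 1 gene. Per kilobase of exon, Ccnd2 stood at 69.1 CPM in KO and 60.9 in WT, Ccnd3 at 37.8 and 40.6, and Ccnd1 at 0.470 and 0.286.

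The partner kinase Cdk4 (chr10:127063534-127067920) had 100.5, 92.0 and 84.0 CPM in KO libraries, against 79.5, 66.7, 67.9 and 82.3 CPM in WT libraries. The groups did not overlap, and the difference missed the threshold (log2 fold change 0.31, SE 0.10, edgeR adjusted p = 0.175). Of its exon bases, 31.2% are shared with Tspan31. Cdk6, the other partner, overlapped between groups, with 14.7, 21.6 and 19.4 CPM in KO libraries, against 14.8, 20.1, 25.0 and 20.5 CPM in WT libraries. Cdk2, which acts with the E cyclins, was nearly level across the libraries, at 65.0 to 71.5 CPM in KO and 63.4 to 71.6 CPM in WT (log2 fold change 0.01, 95% interval -0.16 to 0.19). The E cyclins Ccne1 and Ccne2 and the activators E2f1 and E2f2 overlapped between groups, with log2 fold changes between -0.02 and 0.18. Of the exon bases of Ccne2, 10.5% are shared with Ints8.

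The CDK inhibitor Cdkn1a, which encodes p21 (chr17:29090976-29100727), was the most abundant member per kilobase, at 288 CPM per kilobase in KO and 228 in WT. It had 755, 802 and 787 CPM in KO libraries, against 532, 512, 704 and 728 CPM in WT libraries. The lowest KO library lay just above WT 4, the highest WT library, and the log2 fold change was 0.34 (SE 0.13, edgeR adjusted p = 0.235). Cdkn1b, which encodes p27, had 16.9, 15.8 and 16.7 CPM in KO libraries, against 12.6, 11.0, 14.7 and 15.3 CPM in WT libraries. Its groups did not overlap either (0.30, SE 0.13, edgeR adjusted p = 0.283). Cdkn2c, which encodes the CDK4 and CDK6 inhibitor p18, had 6.90, 6.02 and 6.69 CPM in KO libraries, against 6.77, 5.03, 4.42 and 5.66 CPM in WT libraries, with overlap (0.26, SE 0.18, edgeR adjusted p = 0.479). Thus 3 inhibitors, Cdk4 and the scarce Ccnd1 all had a higher mean in KO, and none passed the threshold.

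Myc, a driver of growth and division, had 71.5, 89.8 and 70.0 CPM in KO libraries, against 80.3, 75.7, 93.3 and 74.6 CPM in WT libraries. The libraries of both groups were intermixed (log2 fold change -0.07, 95% interval -0.33 to 0.19, edgeR adjusted p = 0.792).

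The S members with the lowest p were subunits of the MCM helicase, which is loaded at replication origins in G1 and unwinds DNA in S phase. Mcm3 (chr1:20802968-20820312), with the 3 E2F matches printed above, had 105, 112 and 103 CPM in KO libraries, against 95.4, 75.9, 82.3 and 76.7 CPM in WT libraries. No KO library overlapped WT, and the means were 106 ± 4.78 CPM in KO and 82.6 ± 9.02 CPM in WT (SD, n = 3 and n = 4). At a log2 fold change of 0.36 (SE 0.10), Mcm3 passed the threshold in DESeq2 (adjusted p = 0.0328) but not in edgeR (adjusted p = 0.121). Mcm2 (chr6:88883474-88898780) had 52.0, 54.2 and 40.6 CPM in KO libraries, against 44.3, 33.7, 33.9 and 33.5 CPM in WT libraries. KO 3 lay below WT 1, so the groups overlapped, and the log2 fold change was 0.43 (SE 0.14, edgeR adjusted p = 0.161). Mcm5 (chr8:75109569-75128439) also had KO 3 below WT 1, with 53.4, 53.3 and 42.6 CPM in KO libraries, against 47.4, 32.8, 36.6 and 32.3 CPM in WT libraries (0.42, SE 0.15, edgeR adjusted p = 0.190).

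All 6 MCM subunits had a positive log2 fold change, between 0.14 for Mcm4 and 0.43 for Mcm2. Of the exon bases of Mcm7, 10.8% are shared with Ap4m1 and 2.16% with Cops6. Their summed level was 490, 506 and 432 CPM in KO libraries, against 463, 361, 371 and 330 CPM in WT libraries. KO 3 lay below WT 1 and the other libraries were in order of genotype. The licensing factor Cdt1, which loads the helicase, leaned the other way, with 31.8, 35.6 and 30.1 CPM in KO libraries, against 40.8, 36.4, 34.6 and 35.8 CPM in WT libraries (-0.18, SE 0.09, edgeR adjusted p = 0.339). Its inhibitor geminin, Gmnn, had 42.3, 40.8 and 36.7 CPM in KO libraries, against 39.3, 31.0, 38.5 and 37.6 CPM in WT libraries, and overlapped (0.13, edgeR adjusted p = 0.556).

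Pcna, the sliding clamp of the DNA polymerases, did not follow the helicase. It had 115, 116 and 97.4 CPM in KO libraries, against 112, 110, 110 and 103 CPM in WT libraries. The means were 109 ± 10.5 CPM in KO and 109 ± 3.99 CPM in WT (SD, n = 3 and n = 4), and the 95% interval of the log2 fold change was -0.18 to 0.20. The enzymes of deoxynucleotide synthesis, Tyms, Rrm1, Rrm2 and Tk1, were split, 2 positive and 2 negative, and Rrm2 had the lowest value at -0.18 (SE 0.18). Uhrf1, which recruits the maintenance methyltransferase to newly copied DNA, had 15.9 to 19.7 CPM in KO and 11.4 to 16.1 CPM in WT (0.34, SE 0.15, edgeR adjusted p = 0.292).

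**Figure D3:**
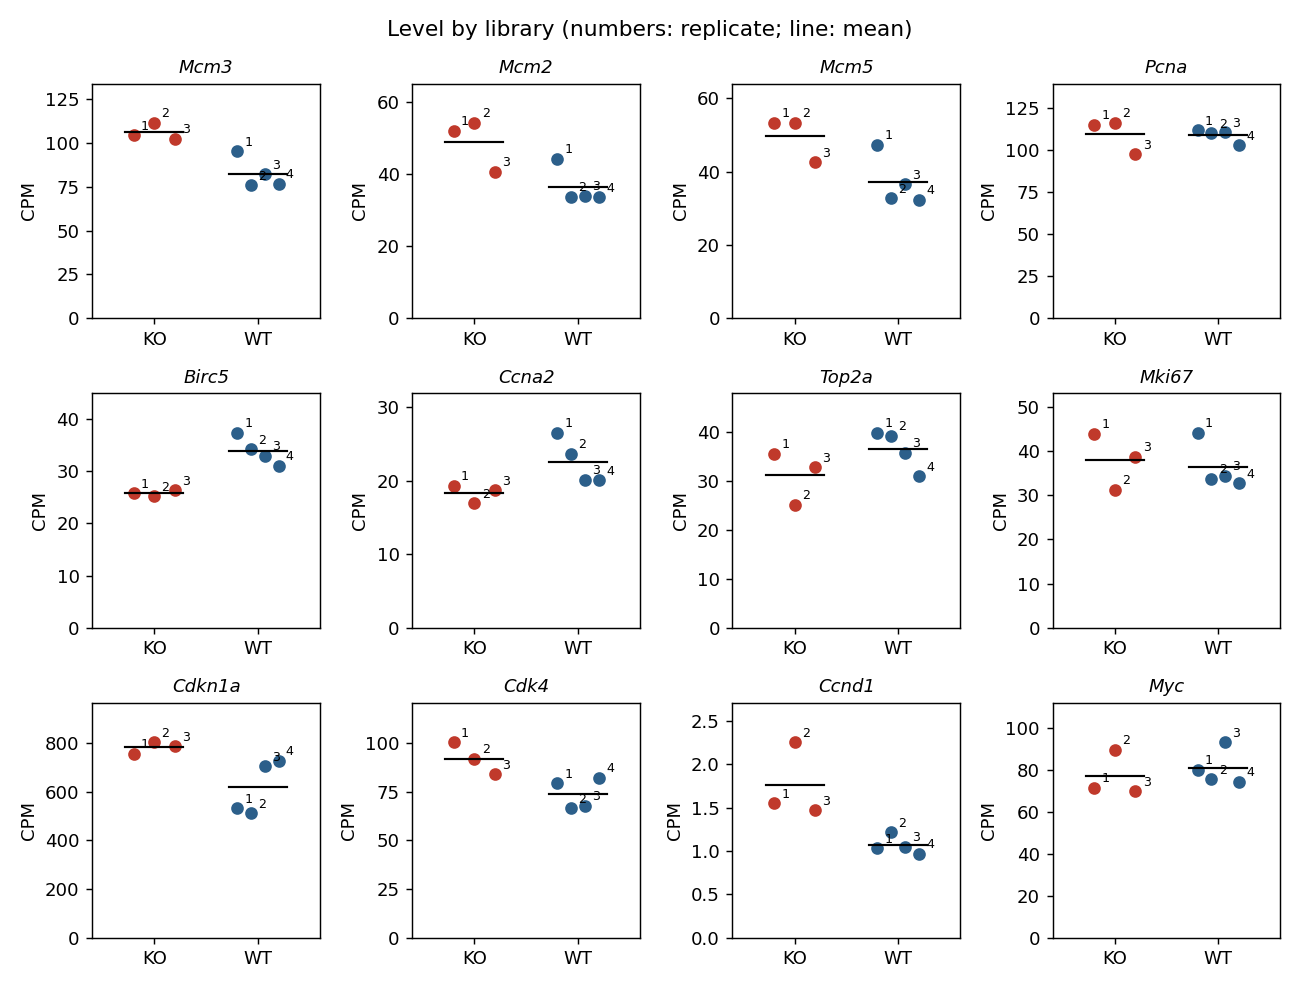
Points are CPM of 12 members in each library, KO left and WT right, with replicate numbers beside the points, black lines at the group means and axes that start at 0. Birc5, Ccna2, Mcm3, Cdkn1a, Cdk4 and Ccnd1 show no overlap between groups, and Pcna, Myc and Mki67 are intermixed.

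The G2/M member farthest from the spread between libraries was Birc5 (chr11:117849251-117855743). It had 25.8, 25.2 and 26.4 CPM in KO libraries, against 37.4, 34.2, 32.9 and 31.1 CPM in WT libraries. The KO libraries were close together, and every one lay below every WT library, with means of 25.8 ± 0.595 CPM in KO and 33.9 ± 2.66 CPM in WT (SD, n = 3 and n = 4). The log2 fold change was -0.40 (SE 0.09, 95% interval -0.59 to -0.20), which missed the edgeR threshold (adjusted p = 0.0950) and passed that of DESeq2 (adjusted p = 0.00985). Without WT 4 the edgeR adjusted p was 0.0496, where 2.25% of all genes passed. No member passed without another single library, where the share of all genes that passed was 0.0774% without KO 1, 0.0693% without KO 2, 1.67% without KO 3, 0.0552% without WT 1, 0.0712% without WT 2 and 0.0711% without WT 3. Without KO 3 and WT 4 together it was 4.57%, and again no member passed. Ccna2, the cyclin of S phase and G2 (chr3:36564865-36572150), had 19.3, 17.0 and 18.8 CPM in KO libraries, against 26.6, 23.7, 20.1 and 20.1 CPM in WT libraries. Its groups did not overlap, but the difference missed both thresholds (-0.30, SE 0.12, adjusted p = 0.248 by edgeR and 0.214 by DESeq2). Of its exon bases, 10.4% are shared with Exosc9.

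The mitotic B cyclins were led by Ccnb2, with 39.2, 42.9 and 40.4 CPM in KO libraries, against 60.0, 44.4, 37.5 and 43.3 CPM in WT libraries. WT 1 stood above all others and the remaining WT libraries were level with KO (-0.18, SE 0.15, edgeR adjusted p = 0.547). Ccnb1 had 19.8, 20.5 and 17.9 CPM in KO libraries, against 25.0, 21.1, 18.8 and 17.6 CPM in WT libraries (-0.09, SE 0.13, edgeR adjusted p = 0.760). Their kinase Cdk1 had 36.8, 34.2 and 29.3 CPM in KO libraries, against 36.4, 29.9, 29.2 and 26.8 CPM in WT libraries, with a log2 fold change of the other sign (0.13, SE 0.12, edgeR adjusted p = 0.619).

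Mki67, the proliferation marker that coats mitotic chromosomes (chr7:135689784-135716361), had 43.8, 31.2 and 38.7 CPM in KO libraries, against 44.1, 33.7, 34.4 and 32.7 CPM in WT libraries. One library of each genotype was high, and the log2 fold change was 0.07 with a 95% interval of -0.26 to 0.39. Top2a, whose promoter holds the 4 CHR matches printed above, had 35.6, 25.2 and 32.8 CPM in KO libraries, against 39.9, 39.3, 35.8 and 31.0 CPM in WT libraries (-0.23, SE 0.14, edgeR adjusted p = 0.414, and -0.10 without KO 2). Plk1, a kinase that drives mitotic entry, had 10.5, 10.1 and 12.8 CPM in KO libraries, against 16.6, 12.6, 12.2 and 12.3 CPM in WT libraries (-0.27, SE 0.15, edgeR adjusted p = 0.384). The checkpoint gene Bub1b had 54.5, 47.4 and 50.05 CPM in KO libraries, against 54.2, 51.4, 44.5 and 42.4 CPM in WT libraries (0.07, edgeR adjusted p = 0.753). The log2 fold changes of its partner Bub1 and of Ube2c, which serves the anaphase-promoting complex, were 0.01 for Bub1 and -0.0030 for Ube2c, which shares 22.8% of its exon bases with Tnnc2, and those of Aurka, Aurkb, Cdc20, Foxm1 and Kif11 lay between -0.24 and -0.10.

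The difference between S and G2/M transcripts can be read within each library, where scaling between libraries cancels. The mean log2 CPM of the S members minus that of the G2/M members was 1.30, 1.36 and 1.15 in KO libraries, against 1.01, 0.90, 1.02 and 1.04 in WT libraries. The groups did not overlap, and the means were 1.27 ± 0.11 in KO and 0.99 ± 0.06 in WT (SD). Among 38 other S phase genes and 43 other G2/M genes that are no members, the same quantity was -0.13, -0.09 and -0.22 in KO libraries, against -0.39, -0.56, -0.45 and -0.45 in WT libraries. These means were -0.15 ± 0.06 in KO and -0.46 ± 0.07 in WT, again without overlap. These values have no test, since the gene lists were chosen with results of these libraries known, and both lists come from the same libraries.

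**Figure D4:**
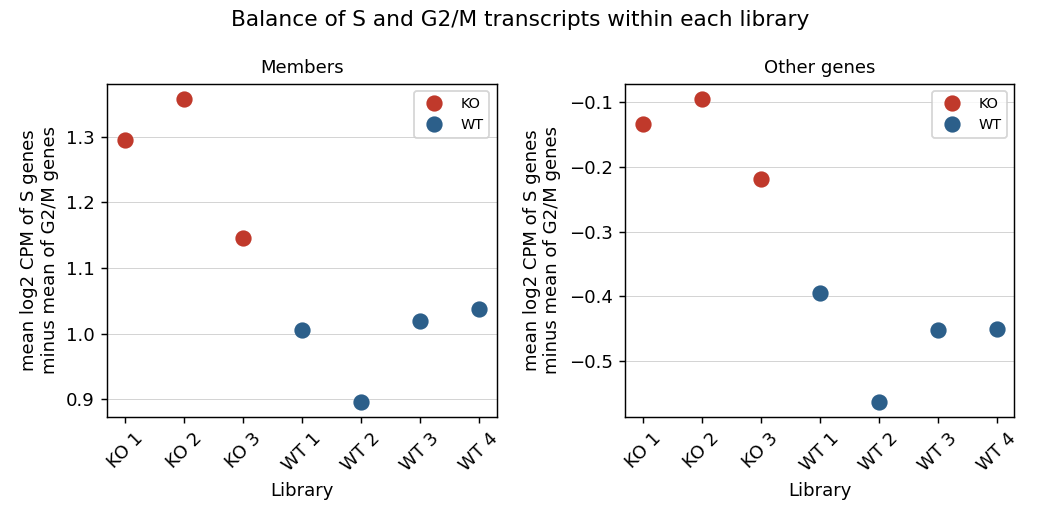
The vertical axis is the mean log2 CPM of S genes minus that of G2/M genes in each library, for the members (left panel) and for other genes of the same phases (right panel), with KO libraries red and left of the WT libraries in blue. In both panels the lowest KO library lies above the highest WT library.

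Summed per phase, the S and the G2/M members overlapped between groups, while the G1 members did not. The G1 members gave 1731, 1675 and 1717 CPM in KO libraries, against 1433, 1286, 1583 and 1603 CPM in WT libraries. The CDK inhibitor Cdkn1a was the most abundant of them, at a mean of 782 CPM in KO and 619 CPM in WT, without overlap. The D cyclins in the same sum overlapped, at 607, 488 and 579 CPM in KO libraries, against 540, 445, 516 and 534 CPM in WT libraries. The G1 sum therefore leans on Cdkn1a and does not describe the cyclins and kinases in it. The S members gave 904, 885 and 768 CPM in KO libraries, against 895, 727, 737 and 667 CPM in WT libraries. The G2/M members gave 401, 361 and 372 CPM in KO libraries, against 481, 410, 379 and 357 CPM in WT libraries. WT 1 was the highest library for 19 of the 44 members and the lowest for none, and WT 4 was the lowest for 16. Without WT 1 the median log2 fold change of the G2/M members was -0.04, with 9 members negative and 7 positive, and without KO 3 it was -0.09. Without WT 1 the median of the S members was 0.21. Without KO 1 the S members split 8 positive to 6 negative. Without WT 4 the median of the G1 members was 0.04.

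Genes of the same phases that are no members were also read out. Of 38 other S phase genes, 32 had a positive log2 fold change, against 50.5% of all genes, with a median of 0.20. None passed edgeR's threshold, and DESeq2 called 3 (7.89%), all higher in KO. Of all 13198 genes with a DESeq2 adjusted p, 354 were called higher, and 5.71% were called in either direction. Ung, the uracil DNA glycosylase, had 3.80, 4.55 and 3.68 CPM in KO libraries, against 2.01, 2.00, 2.39 and 2.78 CPM in WT libraries (0.80, SE 0.21, adjusted p = 0.114 by edgeR and 0.0200 by DESeq2). Cdc45, which joins the MCM helicase at firing origins, had 19.0, 15.3 and 12.4 CPM in KO libraries, against 11.4, 8.13, 11.5 and 8.57 CPM in WT libraries (0.65, SE 0.19, adjusted p = 0.136 by edgeR and 0.0282 by DESeq2). Dnmt1, the maintenance DNA methyltransferase, had 59.9, 38.3 and 43.1 CPM in KO libraries, against 36.1, 34.5, 23.0 and 30.2 CPM in WT libraries (0.60, SE 0.19, adjusted p = 0.151 by edgeR and 0.0382 by DESeq2). In each of these 3 genes the groups did not overlap.

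Of 43 other G2/M genes, 31 had a negative log2 fold change, against 49.5% of all genes, with a median of -0.15. None passed edgeR's threshold, and DESeq2 called 2 (4.65%), both lower in KO. Of all 13198 genes with a DESeq2 adjusted p, 399 were called lower, and 5.71% were called in either direction. The median was -0.079 without WT 1 and -0.088 without KO 2. Anln, the scaffold anillin, had 31.5, 38.6 and 33.6 CPM in KO libraries, against 56.4, 58.5, 54.3 and 36.3 CPM in WT libraries. WT 4 lay among the KO libraries, and the log2 fold change was -0.57 (SE 0.16, adjusted p = 0.133 by edgeR and 0.0226 by DESeq2). Prc1, which bundles the central spindle, had 28.4, 29.6 and 31.9 CPM in KO libraries, against 42.0, 42.7, 39.1 and 35.2 CPM in WT libraries. Its groups did not overlap (-0.41, SE 0.09, adjusted p = 0.0975 by edgeR and 0.0113 by DESeq2).

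**Figure D5:**
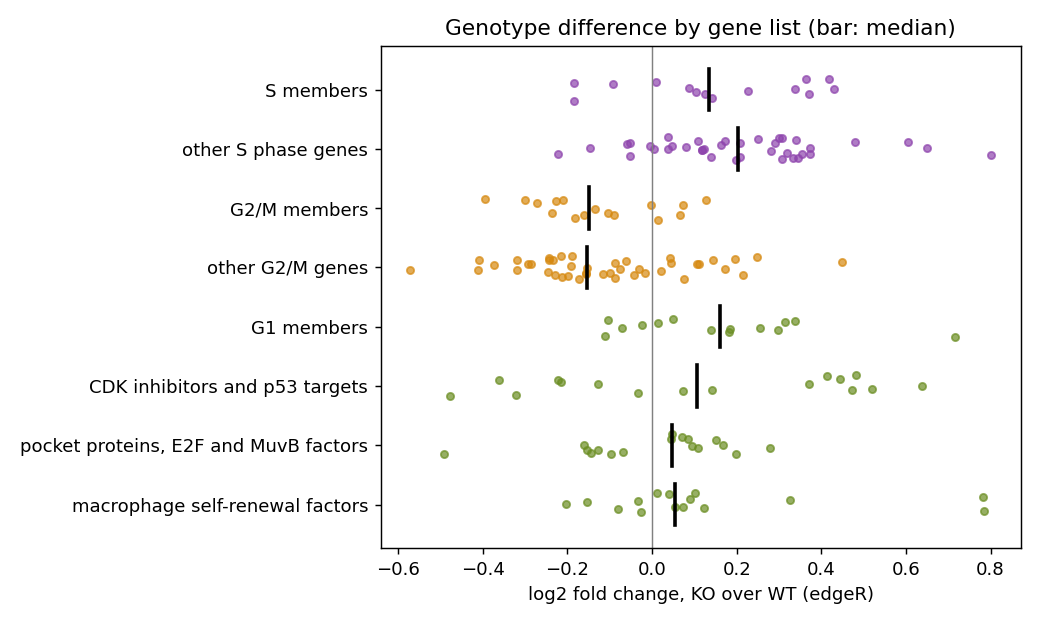
Each point is the edgeR log2 fold change of KO over WT for 1 gene of the list named on the left, spread vertically for legibility, and black bars are medians. Medians of both S lists lie right of 0 (0.13 and 0.20) and those of both G2/M lists left of it (-0.15 each).

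Among 17 macrophage self-renewal factors, 15 passed the filter, 10 of them positive and 5 negative, with a median of 0.05. None was under an unadjusted p of 0.05 by edgeR, and none was called by DESeq2. Maf was below 1 CPM in every library. Bhlhe41, a factor of alveolar macrophage identity and proliferation in mice, had the lowest p of the list, with 20.9, 20.9 and 15.6 CPM in KO libraries, against 12.2, 16.8, 17.2 and 15.0 CPM in WT libraries (0.33, edgeR adjusted p = 0.313). Klf4 averaged 137 CPM in KO and 136 CPM in WT.

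Markers of other cells also differed between libraries, and their part in these results was not tested. Of 8 T cell markers, led by Lck, all were above 0 in some library, and their sum was 3.46 to 10.3 CPM in KO and 1.81 to 5.79 CPM in WT. The 5 NK cell markers, led by Klrb1c, summed to 0.625 to 6.83 CPM in KO and 1.24 to 3.03 CPM in WT, and the 7 neutrophil markers, led by S100a8, to 13.3 to 35.2 CPM in KO and 7.76 to 20.2 CPM in WT, with Ly6g at 0 in every library. Klrb1c had 2.94, 3.92 and 0.147 CPM in KO libraries, against 0.0839, 0.344, 0.0636 and 0.125 CPM in WT libraries (adjusted p = 0.103 by edgeR and 0.000461 by DESeq2). The 6 markers of endothelium and stroma, led by Pecam1, summed to 4.27 to 12.5 CPM in KO and 1.34 to 5.35 CPM in WT. None of the 6 had a lower mean in KO. Pecam1 and the scarce Cdh5 were higher in KO without overlap, and DESeq2 called both and Cldn5, while edgeR called none. The 7 epithelial markers, led by Epcam, summed to 126 to 160 CPM in KO and 168 to 352 CPM in WT. That order came from Epcam, at 9.24, 29.5 and 92.6 CPM in KO libraries, against 135, 302, 261 and 136 CPM in WT libraries, without overlap. The other 6 had a higher mean in KO with overlapping libraries, such as Sftpc at 50.6 CPM in KO and 26.7 CPM in WT. The sum therefore follows Epcam and does not describe the other 6, and the cells that Epcam came from were not tested. The 4 red cell markers, led by Hba-a2, summed to 284 to 855 CPM in KO and 13.5 to 348 CPM in WT, with overlap. Sums of 6 B cell, 7 monocyte and dendritic cell, 6 interstitial macrophage and 4 eosinophil markers, led by Cd79a, Ccr2, Lyve1 and Ccr3, overlapped between groups and were at most 20.2 CPM in any library.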

How the data were processed

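RNA was extracted from sorted alveolar macrophages and made into libraries with a Nextera XT kit, per the labels' protocols. The authors deposited 1 table of raw read counts per gene symbol, made with rsubread per its file name. The build mm10 and DESeq2 are named in the submitters' processing notes, while for the annotation and for reads with several positions the method is not given in the sources used here. Of 27179 rows, 1036 named no gene (0.376% to 0.424% of counts) and were left out.

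KO was compared with WT on genotype alone in edgeR 4.0.16 (R 4.3.3) with filterByExpr, TMM factors and the quasi-likelihood F test with 5 residual degrees of freedom, two-sided. P-values were adjusted by Benjamini-Hochberg over the 12759 genes tested, with a threshold of 0.05. The script was tested on simulated data. CPM are counts scaled by TMM factors, log2 CPM used a prior count of 2, and each SE is the log2 fold change divided by the root of F. Alternatives were DESeq2 1.42.0, limma 3.58.1 voom, other scalings and filters, a replicate block and each library left out. Exon lengths, positions and exon overlaps came from a GRCm38 (mm10) annotation. Reads carry no molecular identifiers, and 95% intervals cover the spread between libraries.

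All 44 members could be named. Values per library were given for members called by edgeR or DESeq2, the 3 with the smallest p and the 2 most abundant per kilobase of each phase, and textbook anchors, with a few more members by range. The members and lists were chosen with earlier results of these data known. A gene of the self-renewal list is not reported here.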

Additional observations from a re-analysis of the deposited data

Results flagged for a closer look

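Among the groups of 4 WT libraries examined for 1 library far from the others, 7 of 72 stood out, where chance gives about 1 in 20 for a single group. The groups share the same libraries and in part the same genes, so the flags are linked and their number was not tested. WT 1 was the high library for 4 of these: Mcm2 at 44.3 CPM, Mki67 at 44.1 CPM, Plk1 at 16.6 CPM and Cdc20 at 23.3 CPM. WT 2 was the low library for Ccnd2, at 361 CPM. WT 4 was the low library for Kif11, at 11.5 CPM, and the high one for the summed interstitial macrophage markers, at 7.38 CPM.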

How the results depend on the processing

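The number of genes called, 11 in the fit reported, was 753 with DESeq2, 397 with no filter, 21 with at least 5 CPM in 3 libraries, 46 with limma voom, 7 to 284 with each library left out in turn and 590 without KO 3 and WT 4 together, a setting chosen after seeing the data. The high counts among the left-out fits came without WT 4 (284 genes) and without KO 3 (217 genes), and the cause was not tested. Members called were 2 with DESeq2 and 0 to 1 with a library left out, the 1 being Birc5 without WT 4. Genes of the other lists called were 6 with DESeq2, 2 with no filter, 0 to 3 with a library left out and 3 without both libraries. The median log2 fold change of the G1 members, 0.16, was 0.044 (without WT 4) to 0.21 with a library left out and 0.062 without both. Cish passed the threshold at -1.85 with DESeq2, -1.88 with library sizes only, -1.85 with no filter, -1.82 with the stricter filter, -1.70 with voom and -1.48 without both libraries, and lay between -1.999 and -1.58 with a library left out. It missed the threshold with RLE factors (edgeR adjusted p = 0.0505) and without KO 1 (0.225), KO 2 (0.0871), WT 1 (0.114) or WT 3 (0.0981). Correlations of same-numbered deviations from the genotype means were -0.00828, 0.142 and -0.0173. Libraries with different numbers were not compared, so these values cannot tell whether replicate numbers pair the libraries. A fit with the number as a block called 430 genes, 0 members and 1 gene of the other lists. Its G1 median was 0.055 and Cish was at -1.57. Number 4 exists in WT only, so WT 4 adds nothing to the genotype difference in that fit. The fit without WT 4 gave a G1 median of 0.044 and Cish at -1.58. Of 448 values recomputed for 30 named genes, 10 changed sign, in 4 genes near 0. Pcna was -0.044 with library sizes only, -0.0048 with no filter, -0.0016 with voom, -0.020 with the replicate block and -0.039 to 0.088 with a library left out. With a library left out Mki67 ranged from -0.052 to 0.18, Ccnb1 from -0.16 to 0.016 and Myc from -0.20 to 0.0051. With 3 and 4 libraries and a common biological coefficient of variation of 0.187, the number of libraries limits the precision.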

Other observations

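Of 17 CDK inhibitors and p53 targets that are no members, 16 passed the filter, with 9 positive and 7 negative log2 fold changes and a median of 0.11. None passed edgeR's threshold, and 5 (31.2%) were higher and 1 (6.25%) lower in KO at an unadjusted p under 0.05, against 9.15% and 8.85% of all genes. DESeq2 called 1 (6.25%, against 5.71% of all genes), Phlda3, a p53 target that restrains Akt, which had 114, 104 and 131 CPM in KO libraries, against 169, 167, 163 and 148 CPM in WT libraries. Its groups did not overlap (-0.48, SE 0.10, adjusted p = 0.0946 by edgeR and 0.00114 by DESeq2). Btg1, an antiproliferative gene, averaged 856 CPM in KO and 612 CPM in WT (0.48, SE 0.17, edgeR adjusted p = 0.197). It was picked for its level, with its values in view.

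Of 17 pocket proteins, E2F and MuvB factors, 10 were positive and 7 negative, with a median of 0.05, and none was under an unadjusted p of 0.05 by edgeR or called by DESeq2. The lowest p was that of Tfdp2, an E2F partner, with 12.9, 15.1 and 12.7 CPM in KO libraries, against 13.1, 12.0, 10.6 and 9.11 CPM in WT libraries (0.28, edgeR adjusted p = 0.355).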
